A study of Mus musculus with 8 samples.

Results

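Bdnf, a secreted growth factor of sensory neurons, was measured together with Ntf3 (neurotrophin-3), the receptor tyrosine kinases Ntrk2 (TrkB) and Ntrk3 (TrkC), the shared receptor Ngfr (p75) and the sorting receptor Sort1 (sortilin). These 6 genes were taken by symbol from the 22609 genes counted in each library. They were picked as a family around Bdnf because its level separated the sexes in an earlier look at the same libraries, so the sex difference of Bdnf is described below with no test. All 6 genes passed the low-count filter, which left 12518 genes for testing.

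The RNA came from dorsal root ganglion (DRG) neurons with endings in the skin of the hindpaw or the muscle of the thigh, from naïve young adult C57BL/6J mice, 4 females in the estrous phase and 4 males. All animals had the fluorescent lectin WGA-488 injected into both hindpaws and both thighs, and had no other treatment. The labelled neurons of the lumbar ganglia L3, L4 and L5 were sorted by flow cytometry and their RNA was amplified with the SMART-seq2 protocol. Skin and muscle neurons are mixed in every library, and the sort selected cells by dye and not by neuron type. Libraries held 4.80 to 7.33 M gene reads (M, 1e6 reads), so that 3 reads, the floor used here, corresponded to 0.409 to 0.625 counts per 1e6 gene reads (CPM).

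Neurotrophins are made as precursors, cleaved and secreted, and each binds a preferred Trk receptor: Bdnf binds TrkB and neurotrophin-3 binds TrkC. In the DRG, TrkB marks a class of myelinated touch neurons and TrkC marks muscle proprioceptors, while Bdnf itself is made mainly in peptidergic nociceptors and released in the spinal cord. The p75 receptor binds all neurotrophins, pairs with sortilin to bind the precursors, and is also made by glia, as is a truncated TrkB that lacks the kinase.

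Bdnf is transcribed from several promoters that join different first exons to the same coding exon. The counts pool all of them, since each gene had 1 count per library. The gene lies on chromosome 2, from 109514857 to 109567204 on the plus strand of build mm9, and its annotation there has 10 transcripts with 7 distinct starts. Ntrk2 is pooled in the same way: its annotated coding parts run from 455 to 821 residues, and reads of the truncated and the full receptor were counted together. For Ntrk3 they run from 612 to 825 residues. Promoter windows of 300 bases (250 before and 50 after a start) were read from RefSeq on build GRCm38.p6, with 7 windows for Bdnf, 2 for Ntf3 and 1 each for Ntrk2 and Ngfr. They were searched on both strands for the full cAMP response element, TGACGTCA. A shorter core of that element, which every full element contains, was searched as CGTCA. The third motif was the E-box, a palindrome bound by factors such as Usf1, with the letters CACGTG. Of the 7 Bdnf windows, 1 held this core and none held the full element or the E-box. Of the Ntf3 windows, 1 held an E-box, and the windows of Ntrk2 and Ngfr held none of the motifs. Among all 32851 windows, 20.8% held the core, 1.79% the full element and 7.15% the E-box. The most upstream Bdnf window and the window with the core (in capitals) are given here because the counts cannot tell which start was used.
Bdnf start 1, chr2:109674450-109674749, plus strand: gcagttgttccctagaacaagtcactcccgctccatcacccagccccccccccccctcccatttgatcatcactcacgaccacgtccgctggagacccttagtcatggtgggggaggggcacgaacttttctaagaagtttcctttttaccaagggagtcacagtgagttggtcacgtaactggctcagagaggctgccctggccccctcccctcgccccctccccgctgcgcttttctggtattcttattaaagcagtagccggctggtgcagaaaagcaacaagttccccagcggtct
Bdnf start 3, chr2:109692186-109692485, plus strand: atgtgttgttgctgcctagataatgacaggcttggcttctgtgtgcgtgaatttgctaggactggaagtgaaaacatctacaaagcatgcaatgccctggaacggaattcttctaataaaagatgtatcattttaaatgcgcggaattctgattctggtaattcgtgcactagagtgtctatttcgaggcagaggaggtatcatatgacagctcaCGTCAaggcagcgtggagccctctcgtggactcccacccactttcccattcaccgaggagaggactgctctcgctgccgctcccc
A match is a description of these letters and not evidence of binding.

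The genes differed widely in level. Per kilobase of exon, Ngfr had 446 ± 99.0 CPM (SD, n = 8), and 0.727% of tested genes were higher. Bdnf followed with 17.4 ± 6.45 CPM per kilobase (SD, n = 8), a place set by the males: its mean was 22.8 in males, while in females it lay below the means of Ntrk2, 13.3, and Ntrk3, 14.1. Ntrk2 had 11.9 ± 2.17 and Ntrk3 had 11.8 ± 3.48 CPM per kilobase (SD, n = 8). Sort1 had 2.22 ± 0.526 and Ntf3 1.27 ± 0.459 CPM per kilobase (SD, n = 8). Ngfr was above Bdnf, and Ntrk3 above Sort1, in 8 of 8 libraries with no overlap of their ranges. The other neighbours overlapped: Bdnf was above Ntrk2 in 5 of 8 libraries, Ntrk2 above Ntrk3 in 5 of 8 and Sort1 above Ntf3 in 7 of 8. These levels depend on the length used, here all annotated exons joined. For Ntrk2 that was 15094 bases, where its longest transcript had 8541. With the longest transcript the order of the 6 means was the same, and the library counts were not redone.

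**Figure D1:**
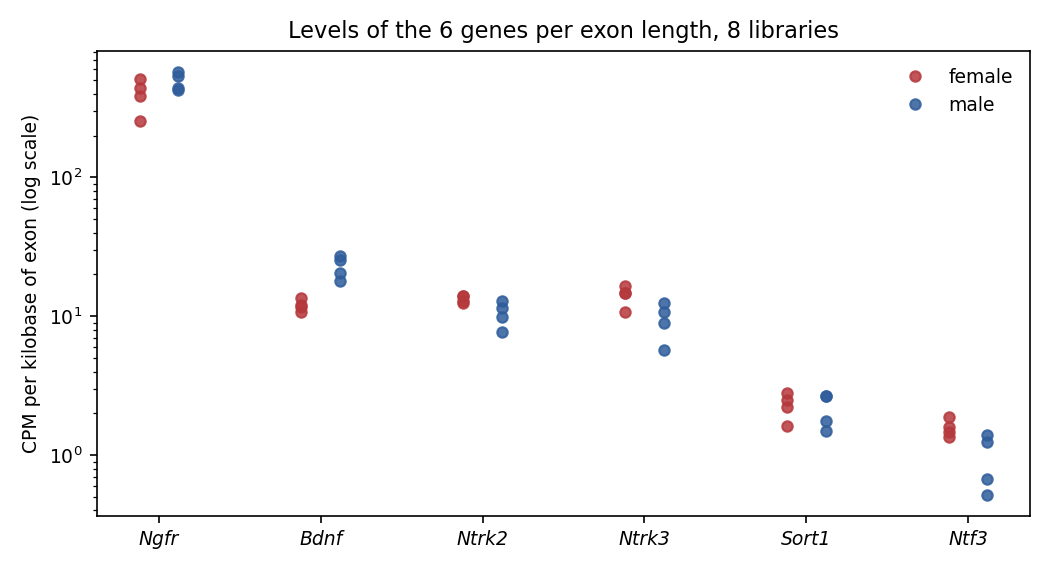
CPM per kilobase of exon, on a log axis, for the 6 genes in the 4 female (red) and 4 male (blue) libraries, 1 point per library. Ngfr lay between 256 and 575, above every other gene, and Ntf3 between 0.520 and 1.89.

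Among the ligands, Bdnf was higher in male neurons. The female libraries had 68.6, 63.2, 70.4 and 79.2 CPM (replicates 1 to 4) and the male libraries 159, 120, 105 and 149 CPM. The sexes did not overlap: the lowest male level, 105 CPM, was above the highest female level, 79.2 CPM. Groups without overlap, with males higher, were found for 2.52% of the 12518 tested genes, and in either direction for 5.52%. The means were 70.3 ± 6.65 CPM in females and 133 ± 25.1 CPM in males (SD, n = 4 each), 1.90-fold higher in males; the female libraries held 338 to 499 Bdnf reads and the male ones 634 to 1166. On the log2 scale the difference, female over male, was -0.94 ± 0.15 (edgeR estimate and SE). Of all tested genes, 0.296% had a more negative value and 1.32% a larger absolute value. In these bulk samples, fewer cells of a type and less RNA per cell cannot be told apart.

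Ntf3, the ligand of TrkC, was near the limit of detection. Reads of Ntf3 numbered from 11 to 16 among females and from 5 to 12 among males. Female libraries had 1.92, 2.08, 2.29 and 2.70 CPM and male libraries 0.955, 0.743, 1.98 and 1.77 CPM. The sexes overlapped, since male 3 lay within the female range, with the other 3 males below it. The log2 difference was 0.70 ± 0.36 (adjusted p = 0.721, edgeR quasi-likelihood test). The filter asked for a minimum level in 4 libraries, which the 4 female libraries and males 3 and 4 reached, so the male libraries alone would not have passed Ntf3 and its difference is not independent of the filter. Of the other ligands, Ntf5 (neurotrophin-4) had 1 read in a single female library and was not tested.

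**Figure D2:**
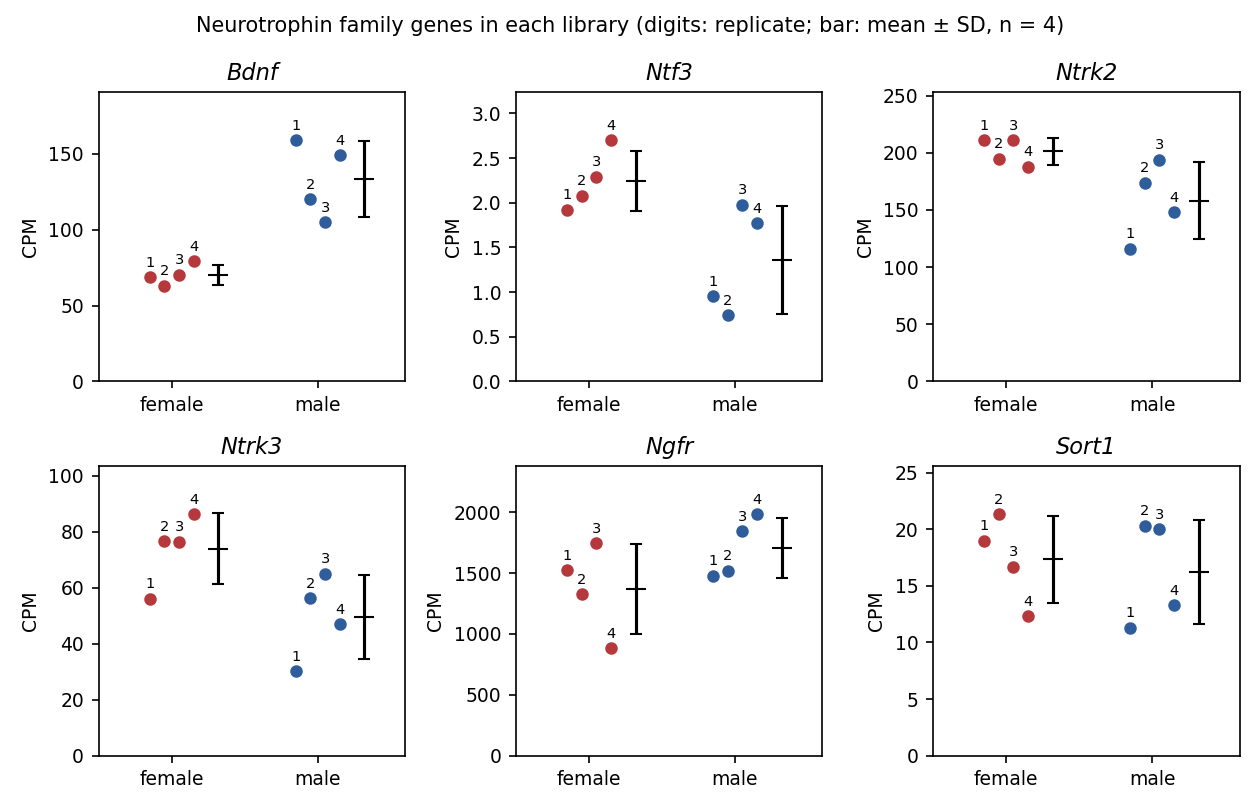
CPM of each of the 6 genes in the 4 female (red) and 4 male (blue) libraries, with the replicate number over each point and the mean ± SD (n = 4) in black. The sexes do not overlap for Bdnf, from 63.2 to 79.2 CPM in females and from 105 to 159 CPM in males, and overlap for the other 5 genes.

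Of the receptors, Ntrk2 and Ntrk3 had higher means in females and Ngfr in males, and none passed adjustment. Ntrk2, the receptor of Bdnf, had 211, 195, 211 and 188 CPM in female and 116, 174, 194 and 148 CPM in male libraries. Only male 3 reached the female range, and male 1 was the lowest. The log2 difference was 0.33 ± 0.15 (adjusted p = 0.699, edgeR), on means of 201 ± 11.6 CPM in females and 158 ± 33.8 CPM in males (SD, n = 4 each). Without male 1 the log2 difference was 0.21 ± 0.13 (adjusted p = 0.972, edgeR).

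Ntrk3, the receptor of neurotrophin-3, had 56.1, 76.7, 76.5 and 86.2 CPM in female libraries. In male libraries it had 30.2, 56.3, 65.1 and 47.0 CPM. Female 1 lay among the males and male 1 was again the lowest. The means were 73.9 ± 12.7 and 49.6 ± 14.9 CPM (SD, n = 4 each) and the log2 difference 0.56 ± 0.22, with an unadjusted p of 0.0300 and an adjusted p of 0.660 (edgeR). At the unadjusted threshold of 0.05, 4.44% of tested genes were higher in females. Without male 1 the log2 difference was 0.38 ± 0.18 (adjusted p = 0.972, edgeR). Its unadjusted p was then 0.0602 (edgeR), above 0.05. Leaving out female 2, 3 or 4 or male 4 also put that p above 0.05, at 0.0579 to 0.0654 (edgeR). Without both female 4 and male 1 the log2 difference was 0.30 ± 0.16 (adjusted p = 0.558, edgeR).

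Ngfr and Sort1 did not separate the sexes. Ngfr had 1523, 1327, 1747 and 881 CPM in females and 1478, 1520, 1846 and 1981 CPM in males. Females 2 and 4 were below every male, and the other females lay within the male range. Its log2 difference was -0.33 ± 0.20 (adjusted p = 0.752, edgeR) and, without female 4, -0.17 ± 0.12 (adjusted p = 0.623, edgeR). Without female 3 it was -0.48 ± 0.19 (unadjusted p = 0.0336, adjusted p = 0.867, edgeR). Sort1 had 19.0, 21.3, 16.7 and 12.3 CPM in females and 11.3, 20.3, 20.0 and 13.3 CPM in males. Its log2 difference was 0.08 ± 0.24 (adjusted p = 0.944, edgeR), and its sign depended on which library was left out. Sort1 shares 329 exon bases with Gm12523 on the opposite strand, and whether the counting used strand is not given in the sources used here, so its counts are uncertain.

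Of the 5 genes besides Bdnf, none had an adjusted p under 0.05 (0.0879% of tested genes did, 0.0240% with females and 0.0639% with males higher) and 1, Ntrk3, had an unadjusted p under 0.05 (7.11% of tested genes did). Bdnf was chosen on this contrast and is left out of these counts. The median log2 difference of all tested genes was 0.00337, and 50.7% of them were above 0.

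**Figure D3:**
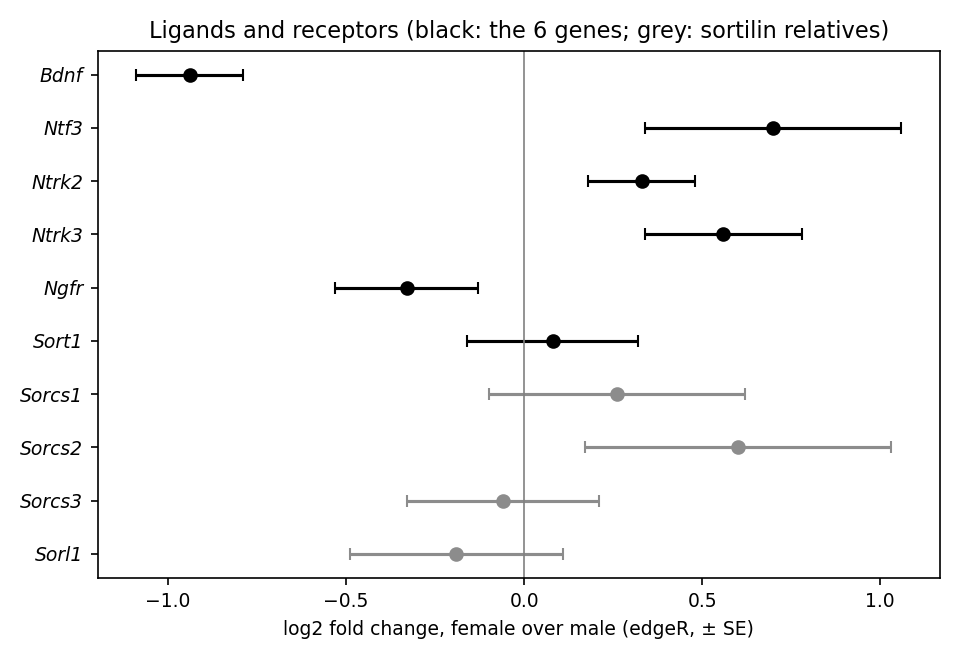
Log2 fold change, female over male, with its SE from edgeR for the 6 genes (black) and the 4 sortilin relatives (grey). Bdnf, at -0.94, lies to the male side and Ntf3, Ntrk2 and Ntrk3, at 0.70, 0.33 and 0.56, to the female side.

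The sortilin relatives Sorcs1, Sorcs2, Sorcs3 and Sorl1 had log2 differences of 0.26 ± 0.36, 0.60 ± 0.43, -0.06 ± 0.27 and -0.19 ± 0.30, with edgeR adjusted p from 0.790 to 0.969, none past the test. Sorl1 shares 185 exon bases with Gm16214 on the opposite strand.

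Ligand and receptor were next set against each other within each library, which cancels depth. The ratio of Bdnf to Ntrk2 reads was 0.326, 0.324, 0.334 and 0.422 in females and 1.37, 0.693, 0.539 and 1.00 in males. The sexes did not overlap, and the ratio was 2.43-fold higher in males. This ratio holds the Bdnf values that chose the family and carries no test. The log2 ratio of Ntrk3 to Ntrk2, which does not use Bdnf, was -1.46 ± 0.33 in females and -1.70 ± 0.17 in males (SD, n = 4 each). The difference of 0.24 gave a two-sided exact permutation p of 0.257 over 70 labelings, of which the smallest possible is 0.0286. Without female 1 it was 0.39, with an exact permutation p of 0.0286, there the smallest that can be reached.

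Marker genes of neurons and other cells were read in the same libraries. All 15 pan-neuronal markers were detected, with a summed level of 24199 to 34370 CPM in females and 24254 to 27393 CPM in males. Markers of satellite glia, the cells that wrap each neuron, summed to 11182 to 14342 CPM in females and 4332 to 10659 CPM in males, without overlap, and 12 of 12 had a log2 difference above 0. Fibroblast markers (167 to 241 against 73.4 to 157 CPM) and macrophage markers (16.5 to 39.2 against 6.55 to 16.0 CPM) were also without overlap. Of their 12 genes each, 8 and 5 passed the filter. Schwann cell markers (2613 to 3133 against 2418 to 2696 CPM) overlapped. Endothelium and blood markers (3.54 to 20.7 against 3.55 to 7.84 CPM) overlapped too. The hemoglobin genes Hbb-b1, Hba-a1 and Hba-a2 were counted at 0 in every library, and whether reads could be assigned to them was not tested. The study named Sox10, Bgn, Islr, Mxra8 and Cd74 of these lists as female-selective in the same preparation. Male 1 had the highest Bdnf, the lowest Ntrk2 and Ntrk3 and the lowest satellite glia sum, 4332 CPM, of the 8 libraries. The other males had satellite glia sums of 8053 to 10659 CPM. In the neuron lists given below, male 1 also had the lowest myelinated sum, 872 CPM, and the highest peptidergic sum, 8933 CPM. Female 4, with the highest satellite glia sum, 14342 CPM, had the highest Bdnf and Ntrk3 but the lowest Ntrk2 of the females. The part of fibroblast and macrophage RNA in the results was not tested.

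With a glial marker score as a covariate the edgeR log2 differences were 0.03 ± 0.15 for Ntrk2, 0.07 ± 0.20 for Ntrk3 and -0.67 ± 0.17 for Bdnf, against 0.33, 0.56 and -0.94 without it. Those of Ntf3, Ngfr and Sort1 were 0.38 ± 0.48, -0.47 ± 0.27 and -0.33 ± 0.27, against 0.70, -0.33 and 0.08. Every female had a higher score than every male, so that sex and glial content cannot be told apart for any of the 6 genes. Markers of peptidergic nociceptors, the neurons known to make Bdnf, summed to 5295 to 6776 CPM in females and 6298 to 8933 CPM in males, and 2 of 11 had a log2 difference above 0. Bdnf per 1000 reads of that list was 10.9, 10.1, 13.3 and 11.7 in females and 17.8, 19.1, 16.1 and 19.4 in males. The sexes did not overlap on this scale, but it holds the Bdnf values that chose the family and carries no test. The means were 11.5 ± 1.36 and 18.1 ± 1.52 (SD, n = 4 each), 1.57-fold higher in males against 1.90-fold in CPM. Markers of myelinated neurons, which include the TrkB and TrkC classes, summed to 1452 to 2865 CPM in females and 872 to 1619 CPM in males, and 13 of 15 had a log2 difference above 0. Per 1000 reads of that list Ntrk3 had 36.4 ± 6.59 in females and 36.4 ± 3.14 in males (SD, n = 4 each), and Ntrk2 had 102 ± 30.6 and 119 ± 11.7. These scales were chosen after the levels had been seen.

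**Figure D4:**
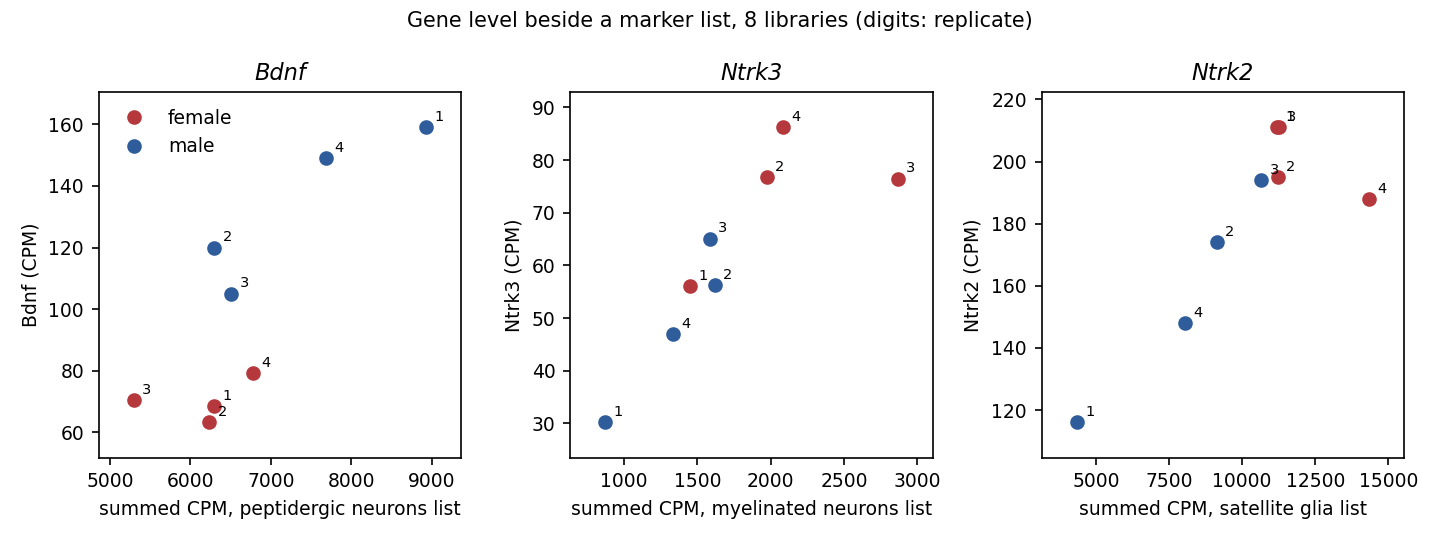
Level of Bdnf, Ntrk3 and Ntrk2 (CPM) against the summed CPM of a marker list (peptidergic neurons, myelinated neurons and satellite glia) in the 4 female (red) and 4 male (blue) libraries, with replicate numbers. Male 1 lies highest for Bdnf, at 159 CPM, and lowest in the other 2 panels, at 30.2 CPM for Ntrk3 and 116 CPM for Ntrk2.

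The genes whose pattern was most like that of Bdnf over the 8 libraries, among 9073 genes with a mean of at least 10 CPM, were Fam150b (Pearson's r of log2(CPM + 1) 0.977), Syap1 (0.968), Acp1 (0.959), Cpne8 (0.956) and Serpina3i (0.954). Fam150b, also called Alkal2, a ligand of the receptors Alk and Ltk, had means of 36.2 CPM in females and 92.0 CPM in males. It overlaps Acp1 on the opposite strand, and whether reads of one gene were counted for the other was not tested. For the receptors r with Bdnf was -0.868 for Ntrk2, -0.800 for Ntrk3, 0.371 for Ngfr and -0.502 for Sort1. With the mean of each sex taken out, Snupn (0.963), Tada1 (0.953), Crmp1 (0.944), Ece2 (0.939) and Nrsn1 (0.935) were the most like Bdnf, and r with Bdnf was -0.865 for Ntrk2, -0.625 for Ntrk3, -0.321 for Ngfr and -0.930 for Sort1. The genes most like Ntrk2 on that scale were Lgi4, Mrpl1 and Sept9 (0.983, 0.983 and 0.977). For Ntrk3 they were Id3, Cyp2d22 and Rcn1 (0.973, 0.973 and 0.966). Lman1, Mctp1 and Zfp536 were nearest to Ngfr (0.981, 0.978 and 0.976), and Limch1, Pdzd2 and Gigyf2 to Sort1 (0.982, 0.968 and 0.968). These are descriptions over 8 points that share their libraries and depth.

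Genes upstream and downstream of the receptors were counted in lists. Of 147 tested genes besides the 6, none had an edgeR adjusted p under 0.05, and 3 were higher in females and 6 in males at an unadjusted p under 0.05, or 6.12%, against 7.11% of all tested genes. With the glial score as a covariate none of these 9 genes was past the unadjusted threshold, and 4 others were: Sorcs3 and, named here after their values were seen, Bex1, Homer1 and Npy. Of 17 genes for precursor processing and release, 1 was past the unadjusted threshold: Syt4, a synaptotagmin of Bdnf vesicles, with 562 ± 70.9 CPM in females and 739 ± 78.5 CPM in males (SD, n = 4 each; edgeR adjusted p = 0.600). The granule proteins Chga and Chgb had log2 differences of 0.32 and 0.39. The median of that list was -0.08.

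Of 47 Trk adaptors and kinases, 15 had a log2 difference above 0, with a median of -0.09. Shc1, the adaptor that links Trk receptors to Ras, was the 1 gene past the unadjusted threshold (-0.45 ± 0.17, edgeR adjusted p = 0.656). Nras, a Ras protein, had -0.24. Of 32 p75 adaptors and cleavage enzymes (median -0.06), 2 were past it: Smpd2, a sphingomyelinase, at 0.54 and Lingo1, a p75 co-receptor, at 0.33. Mapk8 (JNK1) had -0.34. Shc1, Smpd2 and Lingo1 were not past the threshold without male 1, without male 4 or with scaling to pan-neuronal counts. Of 25 regulators of Bdnf transcription (median 0.04), 1 was past the unadjusted threshold, the coactivator Crtc2 at 0.50 ± 0.16 (edgeR adjusted p = 0.637). The repressor Rest, with only 14 to 31 reads per library, had 0.66 ± 0.31 (edgeR adjusted p = 0.699). Creb1, which binds the cAMP response element, had -0.71 ± 0.34 (edgeR adjusted p = 0.711).

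Of 22 genes that respond to neurotrophins (median 0.04), 4 were past the unadjusted threshold and all 4 were higher in males, 18.2% of the list. They were Plaur, the urokinase receptor, with 13.1 ± 4.08 CPM in females and 22.2 ± 5.82 CPM in males, and the Ras pathway inhibitors Spry2 and Spry4 at -0.36 and -0.55, followed by Nptx2, a synaptic pentraxin, at -0.42. Of all tested genes, 2.67% were higher in males at that threshold. None of the 4 passed adjustment over all genes, with the smallest edgeR adjusted p at 0.637. Of the 4, Plaur and Spry2 were still past the unadjusted threshold without male 1, Plaur without male 4.

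**Figure D5:**
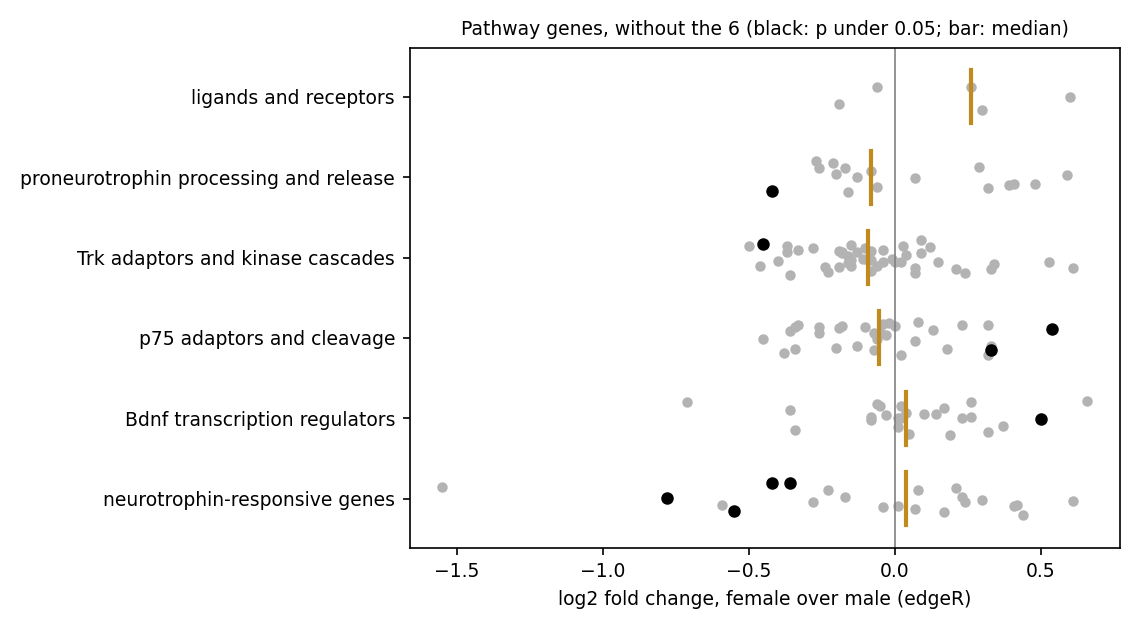
Log2 fold change, female over male (edgeR), of the tested genes of the pathway lists without the 6 genes, 1 point per gene, with the list median as a bar and genes of unadjusted p under 0.05 in black. The medians lie between -0.09 and 0.26, and 4 of the 9 black points are in the list of neurotrophin-responsive genes, all on the male side.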

How the data were processed

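Per the labels, the authors used bcl2fastq, TopHat2 and HTSeq on mouse build mm9; the deposited values are raw read counts for 8 libraries, with no normalization. Tool versions, annotation release and strand option are not given in the sources used here. Reads carry no molecular identifiers, so floors cover counting error only. Summary lines of the counting program were removed (reads in no feature were 57.8 to 60.5%).

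The sexes were compared on these counts in edgeR 4.0.16 (R 4.3.3) by its quasi-likelihood test, with TMM scaling, its default filter, sex alone in the model and Benjamini-Hochberg adjustment over 12518 genes; the test was tested on simulated data first. The biological coefficient of variation was 0.205. Log2 fold changes are female over male. CPM used library totals of gene reads. Exon lengths and mm9 coordinates came from GENCODE M1. Promoters came from RefSeq (GRCm38.p6), and coordinates were not converted between builds. Ratios used an exact permutation test.

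The members, lists and tests were chosen with earlier results of these data known. Genes named were the 6 members, the other ligands and receptors, the 3 genes of smallest p in each other list, and the genes most correlated with a member; Nptx2 was named because it completed a count. Alternatives were DESeq2 1.42.0, the edgeR exact test, limma-voom (limma 3.58.1), other scalings, filters and covariates, thinned counts, a replicate block and each library left out; leaving out female 4 and male 1 together, and counting the members without Bdnf, were chosen after seeing the data. The labels give no batch or date and do not name the animals, so p-values measure the spread between these samples. Some genes under the naming rule are not reported here. Other preparations of the study were not analysed here.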

Additional observations from a re-analysis of the deposited data

Results flagged for a closer look

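Of 46 groups of 4 libraries examined, 5 held a library far from the other 3, where chance gives about 1 in 20, or 2.30 groups. All 5 were female 4. The gap of that library to its nearest neighbour was 0.888 of the range for Sorcs1 (2.79 against 3.93 to 4.07 on the log2(CPM + 1) scale), 0.865 for Sorcs2 (3.21 against 4.69 to 4.92) and 0.844 for Sorl1 (6.18 against 7.62 to 7.88). For the log2 ratio of Bdnf to Ntrk2 it was 0.884 (-1.25 against -1.63 to -1.58), and for the log2 summed CPM of the satellite glia list 0.977 (13.8 against 13.4 to 13.5). Medians of the ratio of female 4 to the other females were taken over the tested genes with a known exon length. They were 1.27 for genes with at most 2000 exon bases and 0.645 for genes with over 8000. The part of exon length in these values was not tested.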

How the results depend on the processing

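Bdnf stayed below 0 in all 20 alternatives: its log2 difference was -0.67 with the glial score as a covariate and -1.04 to -0.84 with 1 library left out. Sort1 turned to -0.33 with that covariate and ran from -0.05 to 0.22 with 1 library left out (-0.04 without female 2, -0.05 without male 1, -0.00 without male 4). Of the 5 genes besides Bdnf, counted so after the data were seen, 0 were past the adjusted threshold in every alternative run. Past the unadjusted threshold, where Ntrk3 was the 1 gene, were 0 with the glial covariate, 2 (Ntrk2 and Ntrk3) with library size alone, with thinned counts, with limma-voom and with the replicate block, and 0 to 3 with 1 library left out (0 without female 2, male 1 or male 4; Ntrk2 in place of Ntrk3 without female 4; Ngfr without female 3; 3 without male 3, with Ntf3 and Ntrk2), and Ntrk2 in place of Ntrk3 without both female 4 and male 1. The planned counts over all 6 genes include Bdnf, on which the family was chosen, and nothing is read from their range, 0 to 1 adjusted and 1 to 4 unadjusted. Of the 147 pathway genes, 4 were past the unadjusted threshold with the glial covariate, none of them among the 9 past it without, 15 without both female 4 and male 1, and 4 to 19 with 1 left out (4 without male 1 or male 4, 19 without female 4). The log2 ratio of Ntrk3 to Ntrk2 differed by 0.13 to 0.39 with 1 library left out (0.39 without female 1) and by 0.05 without both.

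Same-numbered libraries did not deviate together (r -0.109 to 0.144). With the replicate block, Bdnf was -0.93, Ntrk3 0.59 ± 0.16 (edgeR adjusted p = 0.605) and Ntrk2 0.35 (edgeR adjusted p = 0.710), and 10 pathway genes were past the unadjusted threshold. Ntf3 did not pass the filter in thinned counts and has no value there. Depth limits Ntf3 and Ntf5.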
